A study of Sus scrofa with 9 samples.

Results

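Lactoferrin, haptoglobin and the small antibacterial peptides of neutrophil granules were followed in whole blood of miniature pigs around a single oral dose of azide. The probes were chosen by name: those whose gene name was LTF, HP, S100A8, S100A9 or S100A12, or whose description held one of the common names of these proteins. This found 3 genes, out of 1867 gene symbols that could be named, on 5 of the 43603 probes: 1 for LTF, 3 for HP and 1 for the cathelicidin PMAP-23. Of the 5 probes 3 were well above background on every array of at least 1 time point and entered the tests, 1 for LTF and 2 for HP. No probe was found by this rule for S100A8, S100A9 or S100A12, which were not analysed here. The genes were proposed because LTF and HP had stood out at 6 h, so every value of these genes at 6 h below is a description and carries no test. For them only the comparison of 24 h with the time before feeding was tested, and it shares its arrays before feeding with the 6 h values.

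The animals were male Clawn miniature pigs kept free of specified pathogens, whose age is 7 months by one label and 7 weeks by another. Azide, an inhibitor of mitochondrial cytochrome c oxidase, was given by mouth at 300 µg/kg. Blood came from 0 h, before that feeding, and from 6 h and 24 h afterwards, with 3 arrays at each time. The labels state no genetic change and no other agent, and they name no untreated animals sampled at 6 h or 24 h, so the dose, feeding, handling and time of day cannot be told apart. They do not say whether arrays of the same number came from the same pig, so the p-values measure only the spread between these samples. Each time point lay on a slide and in a scan of its own, so slide and time point cannot be told apart either.

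Lactoferrin is an iron-binding protein that neutrophil precursors make and store in their specific granules, and that also occurs in milk and other secretions. Haptoglobin is a plasma protein that captures free haemoglobin; the liver makes most of it, and developing neutrophils also make and store it. Cathelicidins are stored in neutrophil granules as inactive precursors, from which an antibacterial peptide is cut on release, and the pig carries an unusually large family of them, which includes PMAP-23 and PR-39. Mature neutrophils in blood hold much of these proteins while their transcripts are typically most abundant at earlier stages in the bone marrow.

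The probes are shown because several of them claim the same gene and did not behave alike. Each is 60 bases long and is written 5′ to 3′ as the scanner files hold it. The 2 probes of HP that gave a signal are shown whole, and they share no run longer than 6 bases.
HP first probe: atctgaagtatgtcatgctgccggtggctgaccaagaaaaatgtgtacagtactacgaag
HP second probe: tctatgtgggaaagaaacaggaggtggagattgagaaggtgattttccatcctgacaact
They therefore read separate stretches of sequence, each with 1 forward reading frame without a stop codon. The third HP probe has no open forward frame; 24.0% of all probes have none. Bases 11 to 40 of the third probe hold the first stop codon of each forward frame, in capitals.
The third HP probe: gctgtgtTAGcccaagtaTAGagTAGcgca
Bases 21 to 50 of the LTF probe hold the polyadenylation signal AATAAA, in capitals, which was searched for by those letters.
LTF probe: cctcttagcaagaAATAAAattagaaattc
These letters occur on the written strand of 12.1% of all probes and on either strand of 16.3%. The PMAP-23 probe and the probe of its relative NPG4, which the files name LOC396871, are compared over bases 31 to 60, with the 18 bases they share in capitals.
PMAP-23 probe: ctggaaAAATAAATTCTTGTGAAAgcaaaa
NPG4 probe: cccgcatctgtcAAATAAATTCTTGTGAAA
The shared run holds AATAAA, and the PMAP-23 probe shares at most 12 bases with the probes of 3 other cathelicidin sequences on the array. Cross-hybridisation between these cathelicidin probes was not tested. In RefSeq's pig gene table (Sscrofa11.1) NPG4 and PR39 are direct neighbours, 1 gene lies between PR39 and PMAP-23, and 32 genes lie between LTF and NPG4, all on the same chromosome.

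Each array held 43803 spots that were not controls, and the share of them well above background ran from 39.9% to 46.6% on the arrays of 0 h, from 42.4% to 47.8% on those of 6 h and from 45.5% to 56.6% on those of 24 h. Levels below are either the scanner's background-subtracted intensity, which is not comparable between arrays of different brightness, or the log2 intensity relative to the array's own 75th percentile, called the scaled level. Differences are between group means of the scaled level with the standard error (SE) of 1 limma fit over all 9 arrays. A level of one probe cannot be set against that of another. The number of arrays limits the precision of every value. In whole blood, fewer cells of a type and less RNA per cell cannot be told apart.

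LTF was low and even before feeding, far higher on 2 of the 3 arrays at 6 h, and between these levels at 24 h. Its intensity before feeding was 733, 453 and 929.5 on replicates 1, 2 and 3. At 6 h it was 32169, 2334.5 and 58129.9, and at 24 h it was 2435, 1838 and 7784. The probe was well above background on all 9 arrays and none of its spots was saturated, so the brightest values were not capped. On the scaled level LTF stood at 3.17 ± 0.14 before feeding, 7.67 ± 2.11 at 6 h and 4.58 ± 0.60 at 24 h (SD, n = 3 each). The lowest array at 6 h, at 5.28, lay above the highest before feeding, at 3.31, and also, narrowly, above the highest at 24 h, at 5.24.

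Relative to the mean before feeding, LTF at 6 h was 39.1-fold higher on replicate 1, 4.32-fold on replicate 2 and 68.4-fold on replicate 3. The mean difference at 6 h was 4.50 ± 0.81 on the log2 scale (22.6-fold), with all 3 arrays above all 3 before feeding; of all 19780 probes tested, 16% showed such a separation upward. The arrays at 6 h spanned 15.8-fold among themselves, against 1.21-fold before feeding and 2.24-fold at 24 h. Among the tested probes LTF ranked 32 by its SD at 6 h and 17628 by its SD before feeding, where its arrays were among the most even. Replicate 2 set much of the size: without it the 6 h difference was 5.69, and without replicate 3 it was 3.70.

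By 24 h LTF lay 1.41 ± 0.81 above the level before feeding, a 2.66-fold difference whose 95% interval ran from -0.38 to 3.20. The 3 arrays were 2.39-fold, 1.87-fold and 4.19-fold above the mean before feeding, each above every array before feeding; upward separation of this kind was seen for 7.5% of all probes. The difference did not pass the threshold of 0.05 (adjusted p = 0.461 by limma with Benjamini-Hochberg adjustment over 19780 probes). An exact permutation test of the single probe, two-sided over 20 splits, gave p = 0.1, the smallest that 3 arrays against 3 allow. No probe passed in this comparison (0% of those tested; 13.9% had an unadjusted p under 0.05). From 6 h to 24 h the LTF level differed by -3.09 ± 0.81, and every array at 24 h lay below every array at 6 h, as for 16.5% of all probes.

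**Figure D1:**
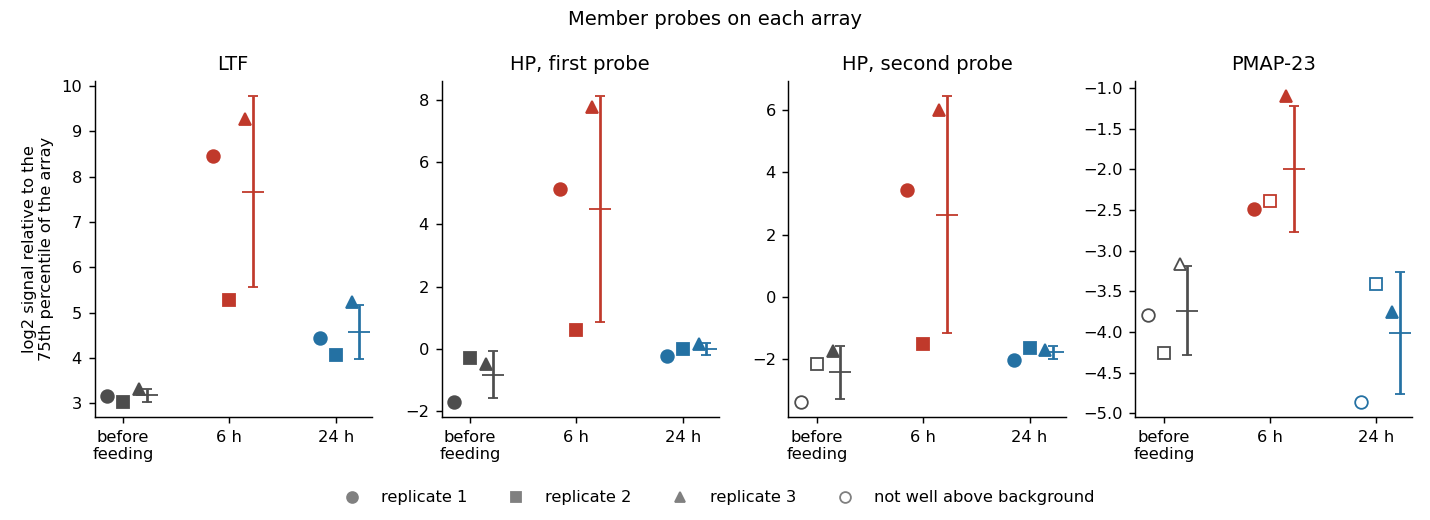
Scaled level (log2 intensity relative to the array's 75th percentile) of 4 probes on each of the 9 arrays, with each group's mean and SD beside the points; open symbols mark spots not well above background. For LTF and both HP probes, replicates 1 and 3 at 6 h lie far above every other array and replicate 2 lies close to the 24 h arrays.

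HP gave the widest range of any gene among the members. On its first probe the intensity was 25.0, 44.6 and 65.8 before feeding, 3191, 90.9 and 20516 at 6 h, and 96.5, 109 and 231 at 24 h. All 9 values were well above background. On the scaled level the group means were -0.84 ± 0.76 before feeding, 4.50 ± 3.62 at 6 h and -0.02 ± 0.20 at 24 h (SD, n = 3 each). At 6 h HP was 62.6-fold above the mean before feeding on replicate 1, 2.72-fold on replicate 2 and 389.8-fold on replicate 3, so 2 arrays were very high and 1 lay close above the highest array before feeding.

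The 3 arrays at 6 h thus spanned 143.5-fold for a single gene, and this spread ranked 5 among the 19780 tested probes, whose median SD at 6 h was 0.45. At 24 h the same probe was among the more even ones, with a span of 1.31-fold and a rank of 14634. The mean difference at 6 h was 5.34 ± 1.33 (40.5-fold), the largest of all tested probes. HP was chosen because it stood out at 6 h, so this rank only restates that choice. The groups did not overlap, and 16% of all probes showed such a separation upward. Without replicate 2 the 6 h difference was 7.29, and without replicate 3 it was 3.71. From 6 h to 24 h HP differed by -4.52 ± 1.33, the lowest value of all tested probes. It uses the same 6 h arrays, so this rank also follows from the choice of HP. Again there was no overlap, as for 16.5% of all probes.

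At 24 h HP was 1.53-fold, 1.80-fold and 2.01-fold above the mean before feeding. The mean difference was 0.82 ± 1.33 (1.77-fold, 95% interval -2.13 to 3.77) and did not pass (adjusted p = 0.813 by limma with Benjamini-Hochberg adjustment). All 3 arrays lay above all 3 before feeding, as for 7.5% of all probes. The exact two-sided permutation test gave its smallest possible p of 0.1. The fit pools the spread of all 3 groups, so the uneven arrays at 6 h widen this SE. Fitted on only the 6 arrays compared, the SE at 24 h was 0.39 for HP (adjusted p = 0.325 by limma) and 0.33 for LTF (adjusted p = 0.196), and neither passed.

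The second HP probe, which shares no long run of bases with the first, was dimmer and followed it closely. Its intensity was 7.93, 12.4 and 28.1 before feeding, where only replicate 3 was well above background. It was 979, 21.2 and 6012 at 6 h and 28.1, 34.8 and 63.8 at 24 h. On this probe too, replicates 1 and 3 at 6 h were the high arrays, at 57.2-fold and 340.2-fold the mean before feeding, and replicate 2 was at 1.89-fold. That mean rests on 2 spots not well above background, so these folds are uncertain. The differences were 5.06 ± 1.40 at 6 h, -4.42 ± 1.40 from 6 h to 24 h, and 0.63 ± 1.40 at 24 h (95% interval -2.47 to 3.74, adjusted p = 0.869 by limma with Benjamini-Hochberg adjustment). At 24 h this probe overlapped its values before feeding, with 2 of 3 arrays above them, and the exact two-sided permutation p was 0.2.

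The log2 ratio of the first to the second HP probe within an array varied little, although the level of the gene varied widely. It was 1.66, 1.84 and 1.23 before feeding, 1.71, 2.10 and 1.77 at 6 h, and 1.78, 1.65 and 1.86 at 24 h, with an SD of 0.23 over the 9 arrays. The lowest ratio, on replicate 3 before feeding, and the highest, on replicate 2 at 6 h, both came from arrays where HP was dim. The correlation of both probes over the 9 arrays was r = 0.997 (rho = 0.933), a description in which 2 bright arrays carry most of the range. The uneven HP levels at 6 h were therefore read alike by both stretches of sequence. The RNA of each array was labelled once, so this says nothing about the labelling of that RNA or about the animals.

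**Figure D2:**
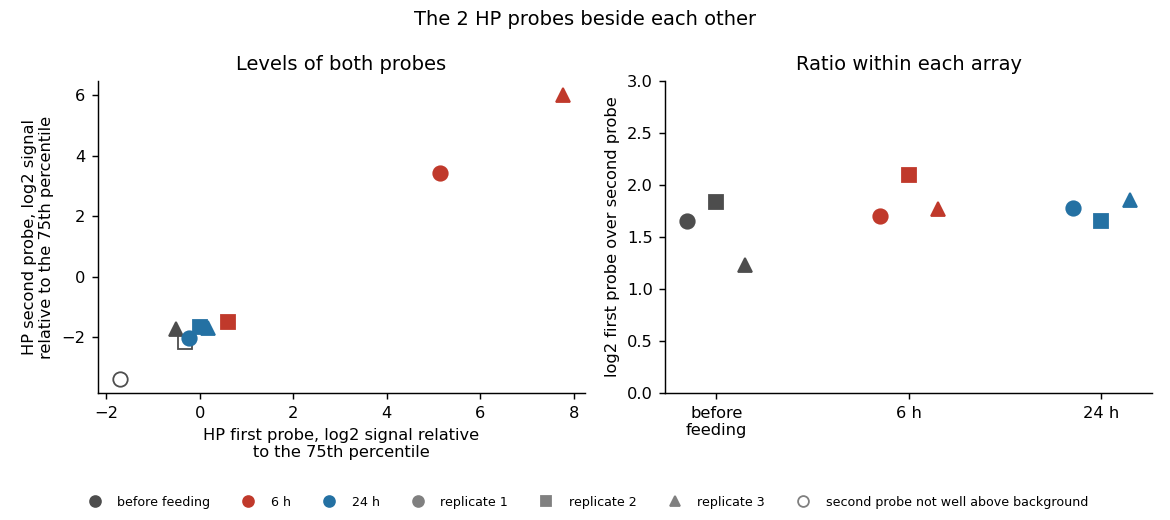
Left, scaled level of the second HP probe against the first on each of the 9 arrays (log2, relative to the array's 75th percentile); right, the log2 ratio of the first to the second probe on each array. The levels spread over the whole left panel while the ratios stay between 1.23 and 2.10.

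The third HP probe, whose written strand has no open frame, was not well above background on any of the 9 arrays, with intensities of 2.23 to 4.07. On the 6 h arrays where the other HP probes were brightest it read 2.66 and 2.72. It gives no fold, and it was left out of the tests.

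PMAP-23, a helical cathelicidin of pig myeloid cells, was dim at every time. Its intensity was 5.88, 2.89 and 10.45 before feeding, 16.3, 11.4 and 43.9 at 6 h, and 3.89, 10.2 and 15.2 at 24 h. It was well above background on none of the arrays before feeding, on 2 at 6 h (replicates 1 and 3) and on 1 at 24 h (replicate 3), and so it was left out of the tests. The scaled level was -3.74 ± 0.55, -1.99 ± 0.77 and -4.01 ± 0.75 at the 3 times (SD, n = 3 each). Because it was not well above background before feeding, only a rough value can be given for 6 h. The mean at 6 h, which includes the dim replicate 2, was 1.76-fold above a floor set for the arrays before feeding. That floor was the lowest signal well above background on each array, or the probe's own if higher. It is not a strict limit, since a spot not well above background can be brighter. No fold is given at 24 h, where the values overlapped those before feeding. Replicate 3 was the highest at 6 h here as well; the position of replicate 2 cannot be read, since its spot was not well above background.

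Further cathelicidins that the rule missed, found by their descriptions after the values above were seen, are given as values without tests. NPG4, described in the files as a homologue of antibacterial peptides rich in proline and arginine, was measured on all 9 arrays. Its scaled level was 1.24, 2.13 and 1.72 before feeding, 2.27, 2.72 and 3.41 at 6 h, and 1.64, 1.87 and 0.59 at 24 h. The arrays at 6 h lay above all the others, by 1.105 ± 0.42 over the time before feeding and with a span far smaller than that of LTF or HP. Of all tested probes, 16% showed an upward separation of 6 h from the time before feeding. A probe for the cathelicidin sequence NP276334, well above background on only 2 of the 3 arrays before feeding, differed by 1.50 ± 0.59 at 6 h and by 0.43 ± 0.59 at 24 h. The probe for NP276240 was well above background on 0, 2 and 1 arrays at the 3 times, and that for PR39, a proline-rich peptide, on 0, 1 and 0.

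For the S100 family, small calcium-binding proteins to which the calgranulins belong, probes of S100A11, S100A6, S100A14 and S100A16 were well above background on all 9 arrays. S100A11 was at 3.29, 3.95 and 4.19 before feeding, 5.99, 4.46 and 6.86 at 6 h, and 4.07, 4.41 and 4.31 at 24 h. It showed the same order of arrays at 6 h as LTF and HP, with replicate 2 the lowest, and a difference of 1.96 ± 0.52. On 3 further probes of S100A11 the differences were 2.01, 2.00 and 1.51, and another of its probes was not above background. S100A6 was at 9.002, 8.86 and 8.97 before feeding and at 9.56, 9.60 and 9.68 at 6 h, a difference of 0.67 ± 0.27 with all 3 arrays even. At 24 h S100A6 was at 8.43, 8.60 and 9.19, which overlapped the level before feeding. The probe described as S100A14 differed by -0.89 ± 0.37 at 6 h and that described as S100A16 by 0.10 ± 0.49, both with overlapping groups. S100A11 is not a neutrophil granule protein, and none of these genes stands in for S100A8, S100A9 or S100A12.

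**Figure D3:**
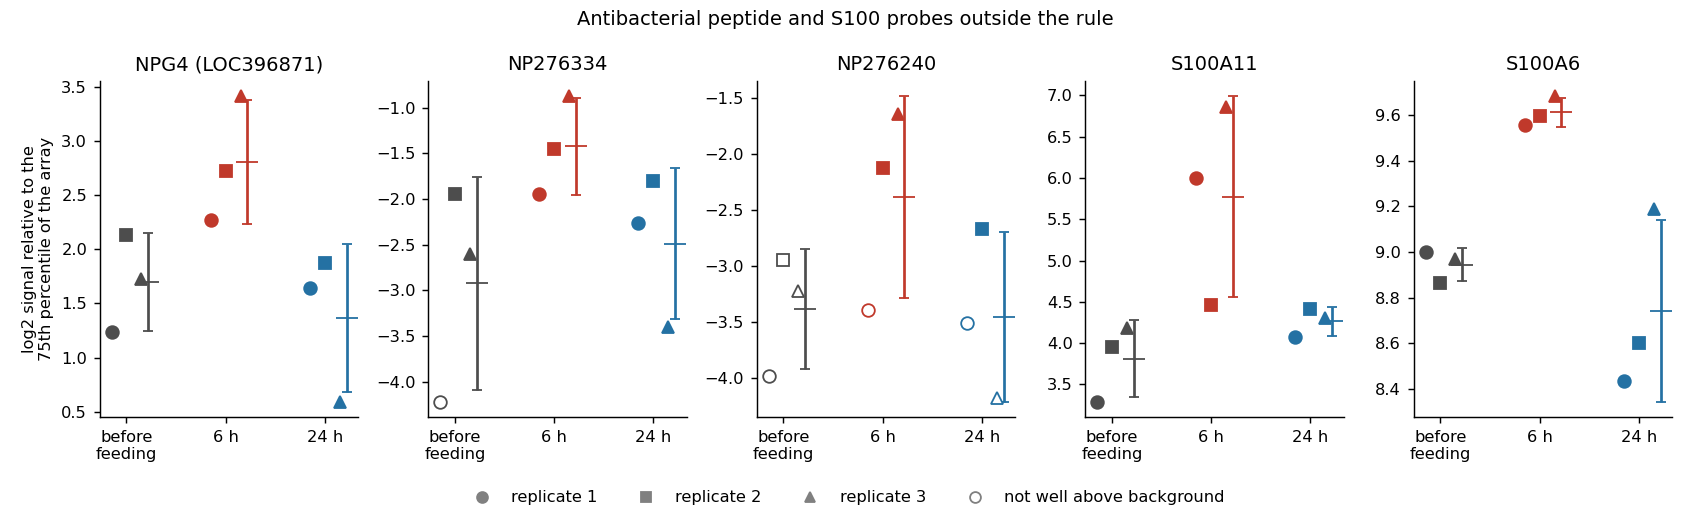
Scaled level (log2, relative to the array's 75th percentile) of 3 cathelicidin and 2 S100 probes outside the rule on each array, with each group's mean and SD; open symbols mark spots not well above background. At 6 h the 3 NPG4 arrays lie between 2.27 and 3.41, the 3 S100A11 arrays between 4.46 and 6.86, and the 3 S100A6 arrays between 9.56 and 9.68.

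The granule genes other than LTF did not all differ in the same direction at 6 h. Each differed by less than LTF, but LTF was chosen by its 6 h values. Its larger size is therefore no result about the granules. Of the specific and gelatinase granule genes, the compartment that holds lactoferrin, 6 of 18 could be tested; 5 had higher values at 6 h, as had 52.6% of all tested probes, with a median of 1.07 against 0.05 for all tested probes, and none passed the threshold (0.0253% of all probes did). SLPI, an inhibitor of neutrophil elastase, differed by 1.59 ± 0.46, CHI3L1, a chitinase-like protein, by 1.30 ± 0.40 and MMP9, the gelatinase, by 1.19 ± 0.55. ARG1, the arginase, was the 1 gene with a lower value, at -0.86 ± 0.67. LTF and HP were not among the 5 probes past the threshold at 6 h either. For them this is a description and no test, since they were chosen by their 6 h values. At 24 h the median of this list was -0.01, with 3 of 6 genes higher, as were 49.1% of all tested probes. Of 12 genes listed for the azurophil granule, the compartment formed first, 2 could be tested, and neither is particular to it. These were LYZ, the lysozyme, at 1.63 ± 0.52 and LAMP1, a lysosomal membrane protein, at 1.35 ± 0.49. Both were also higher at 24 h, by 0.88 ± 0.52 and 1.12 ± 0.49, and neither passed at either time.

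Other acute phase genes are given beside HP. HP was chosen by its 6 h values and had the largest 6 h difference of all tested probes. Any other gene therefore had to differ by less, and this is no result about the list. Of 24 such genes 7 could be tested. All 7 had higher values at 6 h, as had 52.6% of all tested probes, with a median of 0.51, and none passed. The complement protein C3 differed by 1.64 ± 0.72, LBP, which carries bacterial lipopolysaccharide, by 1.03 ± 0.32 and HAMP, the iron hormone hepcidin, by 0.58 ± 0.42. HPX, the plasma protein that binds free haem, differed by 0.17 ± 0.29, and CRP, the classical acute phase protein, by 0.08 ± 0.65. Among the listed genes with a probe but no test, APOA1, TTR, FGG and APCS, which the liver makes in large amounts, stood clear of background on none of the 9 arrays. ALB, the albumin gene, did so on 1 array at 6 h and on none at the other times, and ORM1, SERPINA1 and SAA3 on 1 array at 24 h each. At 24 h the median of the tested genes was 0.02, with 4 of 7 higher, as were 49.1% of all tested probes.

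A list of receptors through which these proteins are known to act or be cleared also holds LBP, named above. Of its 9 genes 5 could be tested. At 6 h 4 were higher, as were 52.6% of all tested probes, with a median of 2.37. CD14, a coreceptor for bacterial lipopolysaccharide, differed by 2.56 ± 0.57. TLR4, the receptor that signals for lipopolysaccharide and for calgranulins, differed by 2.55 ± 0.63. CD163, the macrophage receptor that takes up haptoglobin bound to haemoglobin, differed by 2.37 ± 0.80, and CD36, a scavenger receptor, by -1.20 ± 0.51. None passed. At 24 h all 5 had higher values, as had 49.1% of all tested probes, with a median of 0.72. CD163 had the largest difference, 1.76 ± 0.80, and none passed.

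Of 17 genes that are known to drive granule and acute phase genes or to inhibit such signals, 7 could be tested. All 7 had higher values at 6 h, as had 52.6% of all tested probes, with a median of 1.72. NFKBIA, an inhibitor and target of NF-κB, differed by 2.19 ± 0.47, CEBPB, a transcription factor of myeloid and acute phase genes, by 2.10 ± 0.50, and STAT3, which carries the interleukin-6 signal, by 1.84 ± 0.47. The 24 h differences of these 3 were 0.53 ± 0.47, 0.81 ± 0.50 and 0.44 ± 0.47. None passed at either time. The cytokine gene IL6 itself stood clear of background on none of the 9 arrays.

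Some lists of blood cell markers moved with the member genes from array to array, and others did not. At 6 h the mean of the 5 measured neutrophil surface and oxidase markers lay above its level before feeding by 1.50, 0.97 and 2.30 on replicates 1, 2 and 3. The mean of the 5 measured monocyte markers lay above its level by 1.68, 1.00 and 2.73. The mean of the 7 measured T cell markers differed by -0.85, -0.28 and -1.50. Replicate 2 thus had the smallest shift and replicate 3 the largest in these 3 lists, the order also seen for LTF and HP. Their shifts on these arrays were 5.29, 2.11 and 6.10 for LTF and 5.97, 1.44 and 8.61 for HP. This order was not particular to cell markers. The mean of the azurophil granule genes (1.39, 0.77 and 2.31), of the drivers (1.14, 0.88 and 1.91) and of S100A11 with S100A6 (1.40, 0.65 and 1.90) had it too. The means of the acute phase, receptor and specific and gelatinase granule lists did not. On the mean over a list, the neutrophil markers ranged from 3.33 to 4.09 before feeding, from 4.76 to 6.09 at 6 h and from 3.80 to 4.40 at 24 h, and the monocyte markers from 3.24 to 3.93, from 4.64 to 6.37 and from 3.82 to 4.96. The T cell markers ranged from 1.88 to 2.41, from 0.59 to 1.82 and from 1.99 to 2.00.

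Beside the counts within these lists, 52.6% of all tested probes had higher values at 6 h. Of 13 neutrophil markers 5 were measured and all 5 had higher values. They were led by NCF1, a subunit of the phagocyte oxidase, at 2.50 ± 0.53 and SELPLG, a selectin ligand, at 1.89 ± 0.51. The defining neutrophil genes CSF3R, CXCR1, CXCR2 and FCGR3B were not analysed here. Of 10 monocyte markers 5 were measured and all 5 had higher values, with CD14 and CD163 as above and FCN1, a ficolin, at 2.10 ± 0.53, while VCAN, a proteoglycan, never stood clear of background. Of 11 T cell markers 7 were measured and 6 had lower values, led by CD3G at -1.80 ± 0.61, CD3D at -1.30 ± 0.45 and CD8A at -1.16 ± 0.47, the first 2 being parts of the T cell receptor complex. No marker passed the threshold. The part of cell numbers in the LTF and HP values was not tested.

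**Figure D4:**
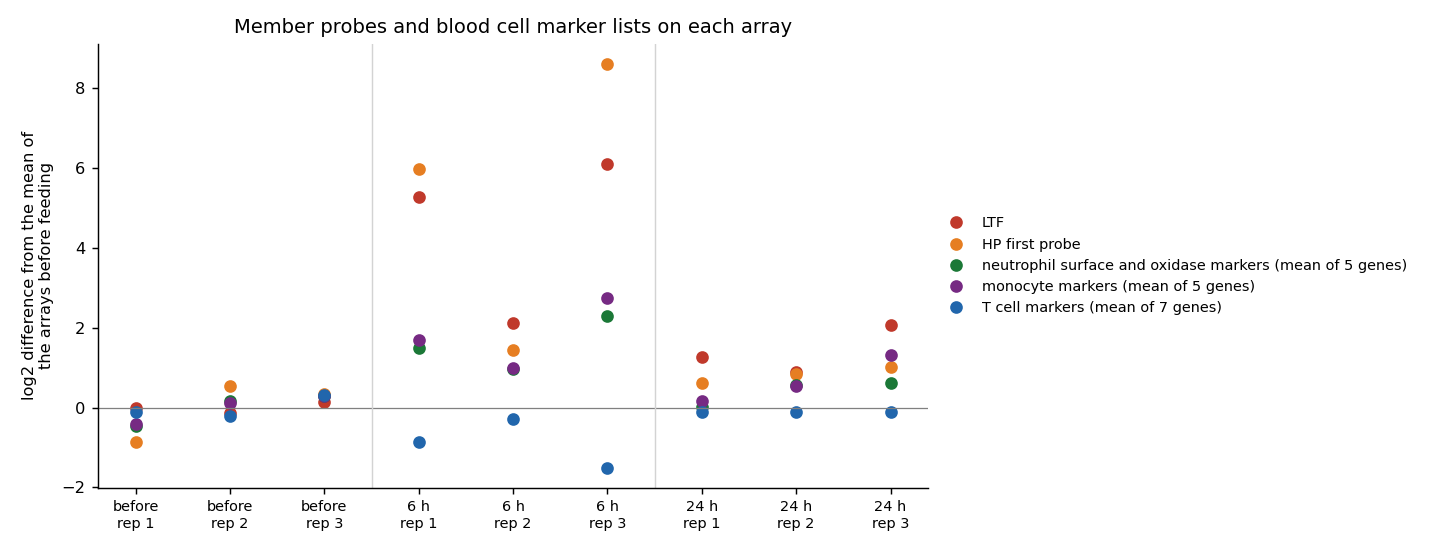
Log2 difference of LTF, the first HP probe and the mean of 3 blood cell marker lists from their own mean before feeding, on each of the 9 arrays (rep: replicate). At 6 h the LTF and HP points reach 6.10 and 8.61 on replicate 3, where the neutrophil and monocyte lists reach 2.30 and 2.73 and the T cell list lies at -1.50.

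The other marker lists were small, and their counts stand beside the 52.6% of all tested probes that had higher values at 6 h. All 3 measured NK cell markers had lower values at 6 h (median -0.75), and their mean differed by -1.39, -0.31 and -1.53 on replicates 1, 2 and 3, an order like that of the T cell markers. Of 3 measured platelet markers 2 had higher values (median 0.25), and so had 2 of 3 eosinophil, basophil and mast cell markers (median 0.07). The mean of the platelet markers lay at 0.07, 0.88 and -0.09 on these arrays and that of the eosinophil, basophil and mast cell markers at 0.18, 0.52 and 0.07, so here replicate 2 was the highest. The red cell gene HBE1 differed by -0.30 ± 0.39, with replicate 2 again the highest of the 3 arrays. The mean of the specific and gelatinase granule genes, at 0.61, 0.64 and 1.16, had replicate 3 as its highest array but not replicate 2 as its lowest.

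LTF and HP followed each other over the 9 arrays, with r = 0.961 (rho = 0.933) for the first HP probe and r = 0.949 (rho = 0.9) for the second. These are descriptions over arrays that share their groups, slides and labelling. Among 1144 named genes with 1 probe each, the 5 most like LTF by Pearson correlation were TGFA, an epidermal growth factor receptor ligand (r = 0.971), TEC, a tyrosine kinase (r = 0.969), KLF4, a transcription factor (r = 0.966), RETN, which encodes resistin (r = 0.965), and SULT1A3 (r = 0.961), whose probe the files describe as the sulfotransferase SULT1A1. The 5 most like HP were S100A11 (r = 0.990), TGFA (r = 0.986), NFKB1, a subunit of NF-κB (r = 0.984), PLIN3, a lipid droplet protein (r = 0.984), and IL6R, the interleukin-6 receptor (r = 0.983). By rank, rho ran from 0.85 to 0.98 among the 5 genes for LTF. Among those for HP it ran from 0.75 for NFKB1 to 0.95 for TGFA. TGFA, whose probe the files describe only as a clone expressed in liver, stood on both lists.

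The differences were recomputed under every setting tried. LTF at 6 h ranged from 3.70 to 5.69 and HP from 3.71 to 7.29, both extremes coming from leaving out replicate 3 or replicate 2 at 6 h. At 24 h LTF against the time before feeding ranged from 1.08 to 2.41. It passed only when arrays were centred on spike-in controls, at 2.41 (adjusted p = 0.0434 by limma with Benjamini-Hochberg adjustment), a scaling that moved the median of all probes at 24 h to 0.99. HP at 24 h ranged from 0.39, without replicate 1 before feeding, to 1.83 with spike-in centring, and passed under none of them.

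**Figure D5:**
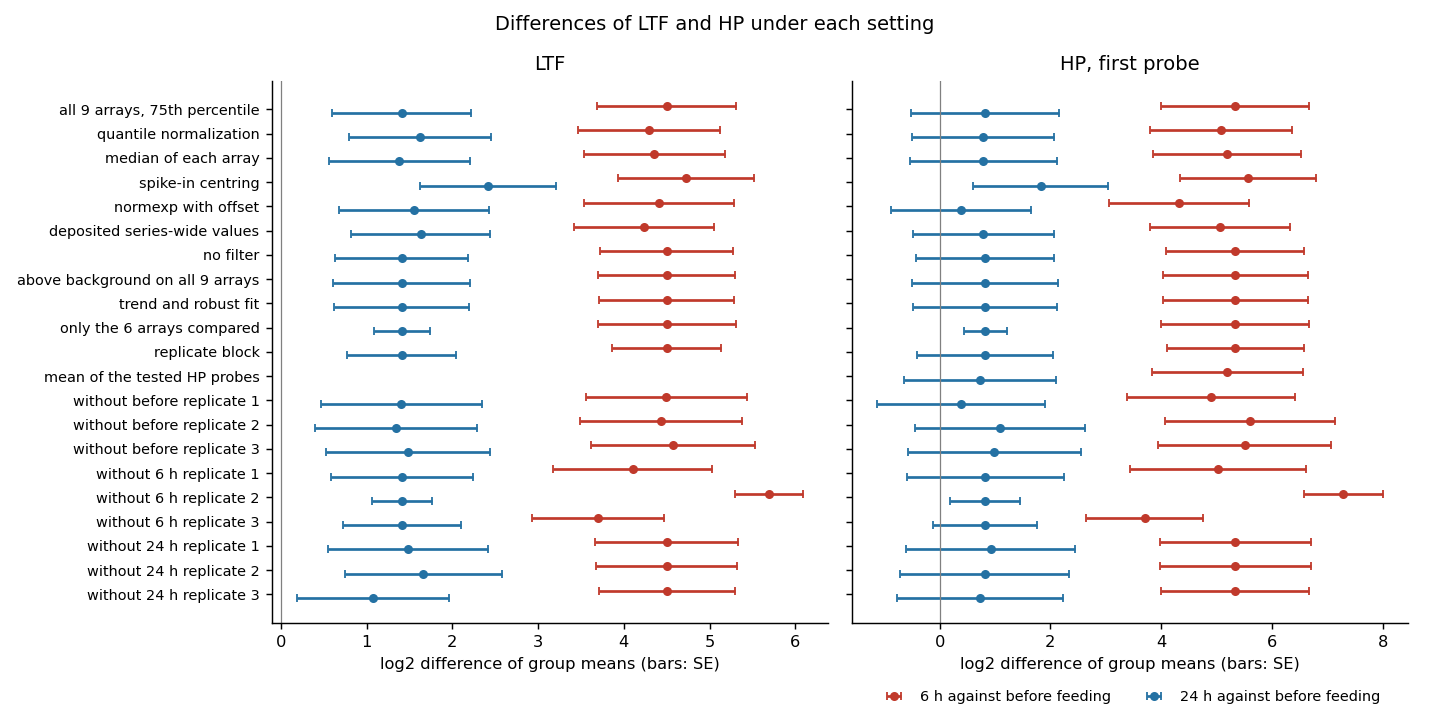
Log2 difference of group means with its SE for LTF (left) and the first HP probe (right), at 6 h in red and 24 h in blue against the time before feeding, under each scaling, filter, fit and left-out array. The 6 h values lie between 3.70 and 5.69 for LTF and between 3.71 and 7.29 for HP, and the blue 24 h values between 1.08 and 2.41 and between 0.39 and 1.83.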

How the data were processed

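Total RNA from blood kept in PAXgene tubes was labelled with Cy3 and hybridised to 1 Agilent porcine array per sample, per the labels' protocols. The deposited scanner files hold processed spot intensity, background-subtracted and not normalized between arrays. Per the file headers they come from Feature Extraction 10.5.1.1, whereas 9.5.3.1 is the version in the submitters' processing notes, a conflict that the files do not resolve. Deposited series-wide values also hold intensity, on a linear scale as judged from their range; their making by the authors is not given in these sources, and they served as an alternative. The 9 columns have medians of 11.375 to 11.443, share 1 maximum and keep the rank order of their own arrays, as columns do after quantile normalization. LTF at 6 h differed by 4.24 with these values and by 4.29 with quantile normalization, so these settings are not separate checks. Direction does not arise with 1 colour.

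Control and outlier spots were removed, repeated spots were averaged by probe, and 43596 probes remained after 7 without a usable spot on some array were dropped. Log2 processed intensity minus each array's 75th percentile was fitted with limma (version 3.58.1, R 4.3.3; files read with data.table, version 1.17.8), with group as the only term, all 9 arrays, 6 residual and 4.61 prior degrees of freedom. Tested were the 19780 probes that had at least 1 group with all 3 arrays well above background, with Benjamini-Hochberg adjustment and a threshold of 0.05. Symbols came from the files and the given tables, for 2883 probes and 1867 symbols; a gene with several probes is represented by the tested one with the highest mean. Gene order came from RefSeq's pig gene table (Sscrofa11.1); genome coordinates were not analysed here.

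The member genes and gene lists were chosen with earlier results of these data known. Named from each list are up to 3 tested genes with the largest difference at 6 h; other genes were named after their values were seen. The values of some genes in the lists are not reported here. Simulated data for 6 h against before feeding (19780 probes) held 100 log2 changes of size 2 and 100 of size 4. Of these, 63% and 96% were called, with 9 false calls. The simulated arrays had independent noise with the same spread in every group, unlike the uneven real arrays at 6 h. These shares therefore do not give the recovery in the real data. Alternatives were other scalings, filters and fits, the mean of the HP probes, a replicate block and leaving out each array. Plots and sequence searches used Python 3.11.15, pandas 2.3.3, numpy 2.4.6 and matplotlib 3.10.9.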

Additional observations from a re-analysis of the deposited data

How the results depend on the processing

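LTF, HP and the second HP probe kept the sign of their differences under all settings tried, except that the second HP probe at 24 h against before feeding was -0.0315 with normexp background correction (adjusted p = 0.991 by limma); the cause was not tested. LTF at 24 h passed only with spike-in centring (2.41), which moved the median of all probes to 0.27 at 6 h and 0.99 at 24 h. The count of probes past the threshold at 6 h was 5, all higher, by the fit as described. It was 8 with quantile normalization and 8 with the deposited series-wide values, which are not separate checks, and 615 (609 higher) with spike-in centring. It was 0 with normexp, with no filter, with probes above background on all 9 arrays, with a trend and robust fit, and with only the 6 arrays compared. At 24 h against before feeding 0 probes passed, but 6 with quantile normalization, 6 with the deposited values and 5816 with spike-in centring (5813 higher). Leaving out 1 array gave counts of 0 to 2396 at 6 h, 0 to 0 at 24 h against before feeding and 0 to 1767 at 24 h against 6 h. The highest counts came without 6 h replicate 2; without 24 h replicate 3 the count at 6 h was 25. Leaving out 1 array put the differences of LTF at 3.70 to 5.69 (6 h), 1.08 to 1.66 (24 h) and -4.28 to -2.29 (24 h against 6 h), and those of HP at 3.71 to 7.29, 0.39 to 1.09 and -6.47 to -2.88. With the replicate number as a block, 620 probes passed at 6 h (537 higher) and LTF at 24 h was 1.41 with an SE of 0.64 (adjusted p = 0.310). The deviations of same-numbered arrays had r from -0.20 to 0.64 (9 pairs, mean 0.18, against a mean of -0.09 for other pairs). Of the 9 arrays, 7 correlated best with their own number. The labels state no pairing and these values do not settle whether there was one. The fit as described did not pair the samples. Probes near background, such as PMAP-23, are limited by signal, and all values by 3 arrays per group.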
